A study of Mus musculus with 8 samples.

Results

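The transcripts of 8 tubulin genes and 2 end-binding (EB) genes were examined in mouse platelets. They are Tubb1, Tubb2a, Tubb4b and Tubb5 for beta-tubulin, Tuba4a, Tuba8, Tuba1b and Tuba1c for alpha-tubulin, and Mapre1 and Mapre2, which encode EB1 and EB2. These 10 genes were taken by symbol from the 43548 in the deposited table, and each matched a single entry. Mapre2 was selected on its FPKM values, which were lower in TNFdARE mice, and its difference between genotypes is given as a description with no test. The other members were chosen for their role, with earlier results of these data known.

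Washed platelets came from 4 TNFdARE mice (genotype label TNFdAre +) and 4 littermate controls (TNFdAre -), with 2 females and 2 males in each group by label, aged 8 to 12 weeks, at baseline and with 1 shared batch label. TNFdARE mice carry a Tnf gene without its AU-rich element and have chronically raised TNF-α in the whole animal, and they were backcrossed to C57BL/6J. The raised TNF-α is not limited to megakaryocytes or platelets, and the sources used here do not say whether the allele was carried on 1 or both chromosomes. Some notes in the labels name fewer mice or older males used for bone, and the numbers of the extraction protocol and the methods were followed.

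Alpha- and beta-tubulin form the heterodimers from which microtubules are built. In a resting platelet, microtubules run in a coil under the membrane at the cell's edge, the marginal band, which keeps the cell a flat disc. Tubb1 is the beta-tubulin isotype largely restricted to megakaryocytes and platelets, and EB proteins bind the growing plus ends of microtubules, including those that drive proplatelet extension.

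Tubulin isotypes are known to differ chiefly in their tails, so the coding ends of the beta-tubulin members are shown to set the platelet isotype beside the others. Positions and sequences are from GENCODE M21 gene models of the GRCm38 (mm10) genome, the build named in the submitters' processing notes. Tubb1 (ENSMUSG00000016255) spans chr2:174450695-174457882 on the plus strand, Tubb2a (ENSMUSG00000058672) chr13:34074274-34078007, Tubb4b (ENSMUSG00000036752) chr2:25222160-25224702 and Tubb5 (ENSMUSG00000001525) chr17:35833921-35838306, all but Tubb1 on the minus strand. Each has 4 exons. In the sequences below, read 5′ to 3′ on the coding strand, capitals mark the tail, stop codon included, and lower case marks the stretch before it that lines up among the beta-tubulins, in which Tubb1 differs from the others at several bases.
Tubb1 coding end: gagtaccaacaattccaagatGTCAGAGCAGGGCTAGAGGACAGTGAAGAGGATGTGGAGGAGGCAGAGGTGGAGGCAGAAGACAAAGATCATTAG
Tubb2a coding end: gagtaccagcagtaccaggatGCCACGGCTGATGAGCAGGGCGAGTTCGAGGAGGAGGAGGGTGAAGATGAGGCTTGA
Tubb4b coding end: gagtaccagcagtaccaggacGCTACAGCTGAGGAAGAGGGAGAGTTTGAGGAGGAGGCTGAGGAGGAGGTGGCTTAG
Tubb5 coding end: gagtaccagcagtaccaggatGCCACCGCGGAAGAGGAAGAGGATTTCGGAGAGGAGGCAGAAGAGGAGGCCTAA
The tail of Tubb1 has 25 codons including the stop, against 19 in Tubb2a and Tubb4b and 18 in Tubb5. Over the whole coding sequence Tubb1 was 74.0%, 75.9% and 74.9% identical to Tubb4b, Tubb2a and Tubb5, whereas Tubb2a and Tubb4b were 83.6% identical to each other. No other annotated transcript matched Tubb1 at 95% identity over 150 bases or more, the read length, so its reads can be told from those of its relatives.

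The alpha-tubulin members are closer to each other than Tubb1 is to its relatives. Tuba4a (ENSMUSG00000026202) spans chr1:75214228-75219865 on the minus strand, Tuba8 (ENSMUSG00000030137) chr6:121210696-121226854 on the plus strand, Tuba1b (ENSMUSG00000023004) chr15:98931425-98934565 on the minus strand and Tuba1c (ENSMUSG00000043091) chr15:99029891-99038110 on the plus strand. Their coding starts are shown with those of the platelet beta-tubulin, since the first 4 codons (capitals) encode the short peptide through which cells are known to recognise nascent tubulin and degrade its mRNA when free tubulin is in excess.
Tubb1 coding start: ATGAGAGAGATCgtgcacatccagattggc
Tuba4a coding start: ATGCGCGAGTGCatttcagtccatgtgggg
Tuba8 coding start: ATGAGGGAATGCatatcggtccatgtgggt
Tuba1b coding start: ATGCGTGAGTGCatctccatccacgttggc
Tuba1c coding start: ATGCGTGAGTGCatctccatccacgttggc
The starts of Tuba1b and Tuba1c are the same in all 30 bases, and their coding sequences were 98.4% identical. Tuba4a was 85.6% identical to Tuba1b and 82.2% to Tuba8.

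The values are FPKM, fragments per kilobase of transcript scaled to the mapped fragments of the library, so levels of different genes can be compared. Reads per library are unknown. The summed FPKM ranged from 46047 to 67602 in control and from 51232 to 99470 in TNFdARE libraries, and AY036118 alone held between 33.7% and 67.7% of it. Platelet markers were present: 13 of 14 platelet and megakaryocyte markers were above 0 in all 8 libraries, and their summed FPKM was 1083 to 1658 in control and 1164 to 1285 in TNFdARE mice. TNFdARE mice 1 and 4 stood apart. They had the fewest genes above 0 (818 and 1225, against 1479 to 4917 in the others) and the highest summed globin FPKM (6802 and 14556, against 734 to 2896). Of the 15 erythroid markers 13 had an entry and 12 were detected in some library, with a summed FPKM of 788 to 2227 in control and 1140 to 14700 in TNFdARE mice, and Klf1 at 0 throughout. Leukocyte lists had low values apart from Lyz2. Their summed FPKM reached at most 10.3 for neutrophil, 13.7 for B cell and 1.50 for T cell markers. The neutrophil maximum was in TNFdARE mouse 4 (at most 0.391 in any other). The B cell maximum was in TNFdARE mouse 1, and control mouse 3 reached 11.1. S100a8, Cd79a and Cd3e were at 0 in all 8 libraries. So were Cct3 and Cct7, tubulin-folding genes that most cells use, and whether platelets lack these RNAs was not tested. With the reads per library unknown, a listed 0 does not show that an RNA was absent. The monocyte and macrophage sum was 30.8 to 50.3 in control and 12.0 to 36.1 in TNFdARE mice, with Cd14, Ccr2, Cd68 and Ly6c2 at 0 throughout.

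Although Tubb2a exceeded it in TNFdARE mouse 1, Tubb1 had by far the highest mean FPKM of the members. Its FPKM was 169, 123, 88.2 and 127 across controls 1 to 4 and 24.4, 141, 111 and 39.0 across TNFdARE mice 1 to 4. TNFdARE mice 2 and 3 lay inside the control range, and TNFdARE mice 1 and 4 lay below it, so the groups overlapped. In rank among all genes of a library, Tubb1 stood between 37 and 66 in control mice and at 38 and 45 in TNFdARE mice 2 and 3, but at 173 and 122 in TNFdARE mice 1 and 4.

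Means were 127 ± 33.0 FPKM (SD, n = 4) in control and 78.7 ± 56.0 (SD, n = 4) in TNFdARE platelets. The log2 difference of Tubb1, TNFdARE minus control on log2(FPKM + 1), was -0.98 (standard error 0.56), with an adjusted p = 0.86 by limma with Benjamini-Hochberg adjustment over the 1534 genes whose mean FPKM reached 1 (unadjusted p = 0.10; two-sided exact permutation test, p = 0.23). The median of all genes tested was itself -0.30, and Tubb1 lay -0.68 from it. Without TNFdARE mice 1 and 4 the difference was 0.014, and the median of all genes was then 0.021. This setting was not planned and drops the lowest Tubb1 libraries, so it was bound to raise the difference. It describes that the lower mean of Tubb1 rests on those libraries and tests nothing. Without TNFdARE mouse 2 the difference of Tubb1 was -1.36, with an unadjusted p = 0.029 by limma. Control mouse 1, with the next fewest genes above 0 after these libraries, had the highest Tubb1 of all. Rescaling each library without its most abundant gene and the globins gave -0.78 for Tubb1 (unadjusted p = 0.16, limma). Beyond this scaling, the part that the number of genes detected or erythroid RNA has in the result was not tested. In bulk RNA, fewer cells of a type and less RNA per cell cannot be told apart. The summed platelet markers of TNFdARE mice 1 and 4 (1164 and 1285 FPKM) lay inside the control range. With each library centred on the mean log2(FPKM + 1) of those markers, the log2 difference of Tubb1 was -0.85 rather than -0.98. By that mean, unlike the sum, the markers were thus themselves somewhat lower in TNFdARE mice.

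**Figure D1:**
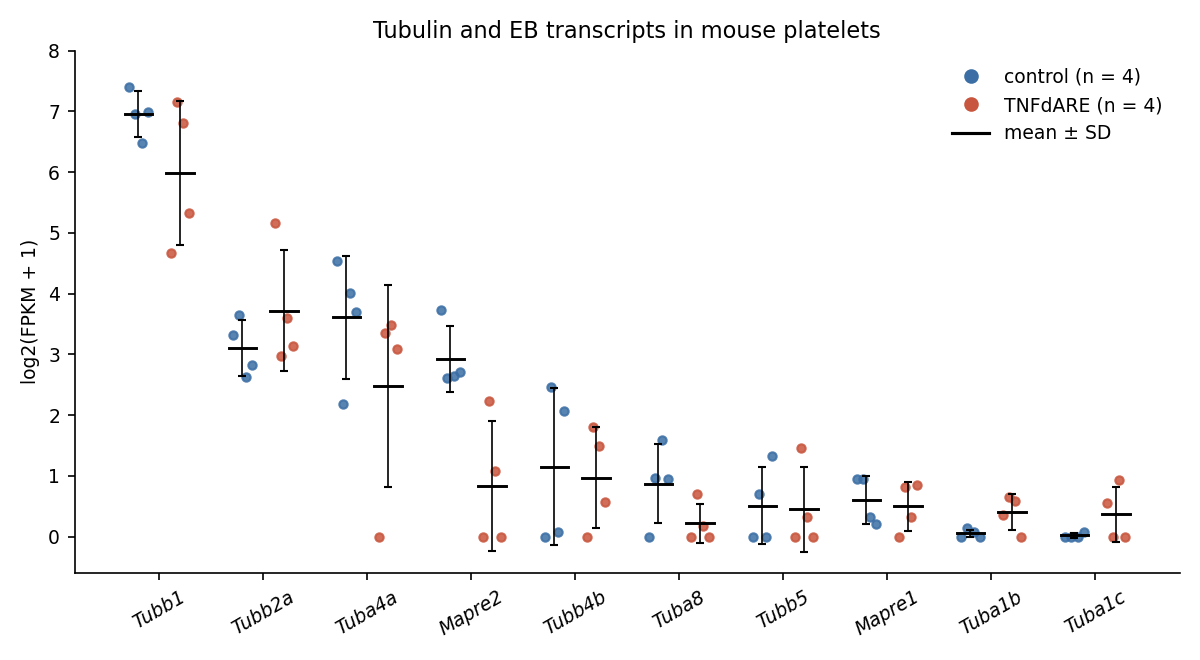
Level of each member, as log2(FPKM + 1), in 4 control (blue) and 4 TNFdARE (red) mice, with the mean ± SD in black; genes are ordered by their mean over all 8 mice. Tubb1 lies above every other member in the control mice, and Mapre2 is the member whose groups do not overlap.

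**Figure D2:**
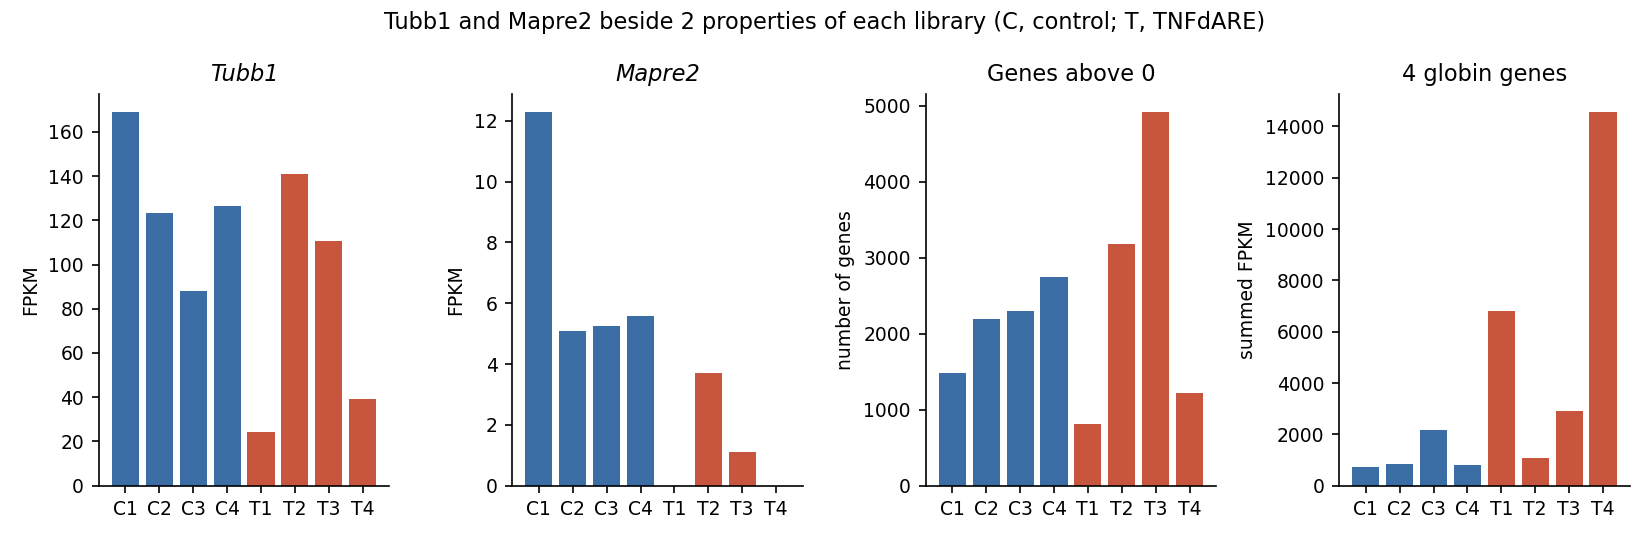
FPKM of Tubb1 and Mapre2 beside the number of genes above 0 and the summed FPKM of 4 globin genes, as 1 bar per library (C1 to C4, control; T1 to T4, TNFdARE). T1 and T4 have the lowest Tubb1, Mapre2 at 0, the fewest genes and the most globin RNA, while C1 has few genes and the highest Tubb1.

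Tubb2a, a beta-tubulin isotype of many cell types, went the other way from Tubb1 in TNFdARE mouse 1. Its FPKM was 8.96, 11.5, 5.15 and 6.08 across controls 1 to 4 and 34.8, 6.88, 11.1 and 7.84 across TNFdARE mice 1 to 4. TNFdARE mouse 1 stood above every other mouse, and the remaining TNFdARE mice lay inside the control range. The log2 difference of Tubb2a was 0.62 (standard error 0.63, adjusted p = 0.87, limma; two-sided exact permutation test, p = 0.37), and 0.14 without TNFdARE mouse 1. In that library Tubb2a exceeded Tubb1, which no other library showed. The coding sequence of Tubb2a is 96.5% identical to that of Tubb2b, listed at 0 to 2.19 FPKM, and how reads were divided between them is not given in the sources used here.

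The share of each isotype within a library does not depend on how libraries were scaled. Of the summed FPKM of the beta-tubulin genes, Tubb1 made up 76.0%, 72.1%, 77.7% and 86.2% across controls 1 to 4 and 26.4%, 82.7%, 74.2% and 53.9% across TNFdARE mice 1 to 4. TNFdARE mice 1 and 4 were again below all other libraries, and TNFdARE mice 2 and 3 were within the control range. The mean share was 78.0% ± 5.95 (SD, n = 4) in control and 59.3% ± 25.1 (SD, n = 4) in TNFdARE platelets, a difference of -18.7 percentage points (two-sided exact permutation test, p = 0.23). Without TNFdARE mice 1 and 4, the lowest in this share, the difference was bound to rise, and it was 0.473 percentage points.

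Tubb6, an isotype outside the members, was the most abundant beta-tubulin after Tubb1 in every library but TNFdARE mouse 1, where Tubb2a exceeded it. Tubb6 was at 44.3, 29.0, 18.6 and 8.69 FPKM across controls 1 to 4 and at 31.7, 17.4, 23.0 and 24.8 across TNFdARE mice 1 to 4, with a log2 difference of 0.13 (standard error 0.56, adjusted p = 0.97, limma). All TNFdARE mice lay inside the control range of Tubb6, including mice 1 and 4, in which its share of beta-tubulin was 34.2% and 34.3%, against 5.91% to 19.9% in control mice. Summed beta-tubulin was 114 to 222 FPKM in control mice, 92.7 and 72.4 in TNFdARE mice 1 and 4, and 170 and 149 in TNFdARE mice 2 and 3.

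**Figure D3:**
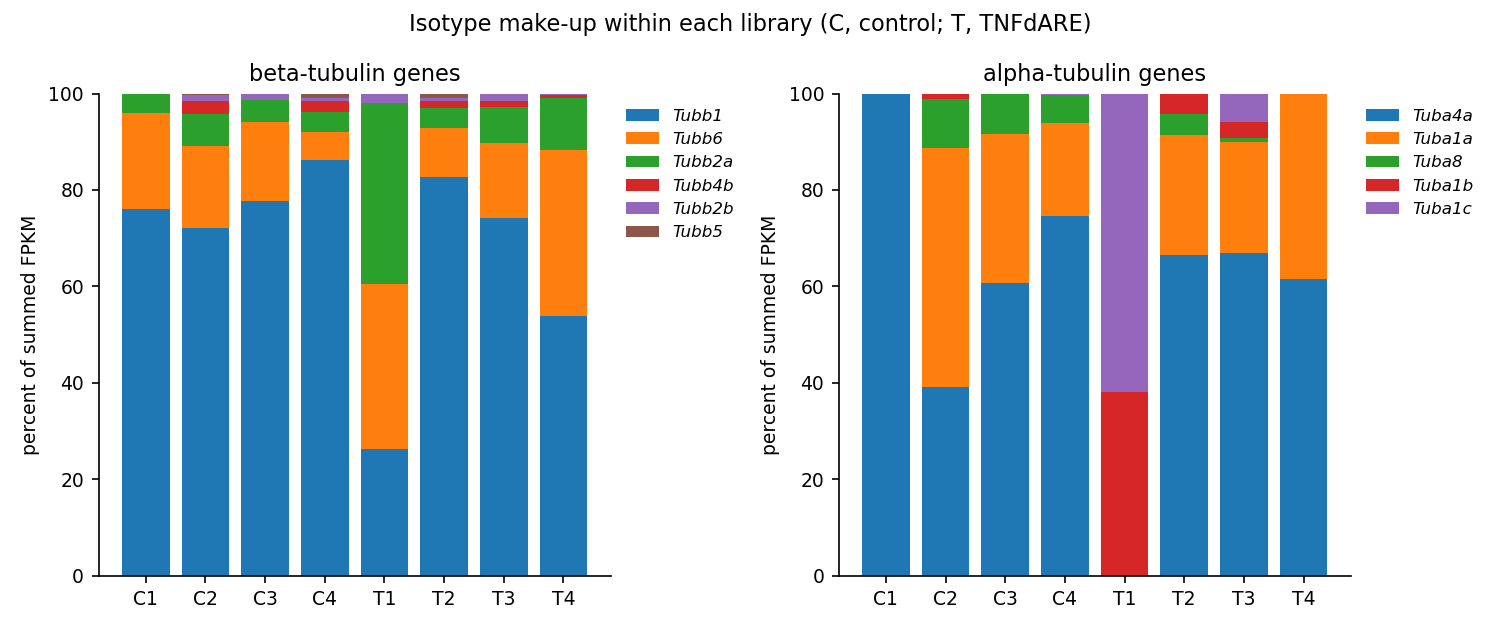
Percent of the summed FPKM of the beta-tubulin genes (left) and alpha-tubulin genes (right) that each isotype holds in each library (C1 to C4, control; T1 to T4, TNFdARE). Tubb1 holds at least 72.1% of beta-tubulin in all libraries but T1 and T4, and Tuba4a is at 0 in T1 alone.

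Tubb4b, another widely expressed isotype, was low and patchy. Its FPKM was 0, 4.53, 0.0520 and 3.18 across controls 1 to 4 and 0, 2.50, 1.82 and 0.481 across TNFdARE mice 1 to 4. Each group held a library at 0, and the TNFdARE values lay inside the control range. The log2 difference was -0.18 (standard error 0.81, adjusted p = 0.97, limma; two-sided exact permutation test, p = 0.71), and its sign changed when control mouse 2, control mouse 4 or TNFdARE mouse 1 was left out. The processed pseudogenes Tubb4b-ps1 and Tubb4b-ps2 match Tubb4b at 98.4% and 96.3% identity over 1339 and 1337 bases. In control mouse 3, where Tubb4b was nearly 0, Tubb4b-ps1 was listed at 1.37 FPKM. Control mouse 2, with the highest Tubb4b, had Tubb4b-ps2 at 1.91 FPKM. In control mouse 1 and TNFdARE mouse 1, where Tubb4b was at 0, both pseudogenes were also at 0. How reads were shared among the copies was not tested.

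Tubb5, the main beta-tubulin of dividing cells, had a mean FPKM below 1 and was not in the fit over all genes. It was at 0, 0.633, 0 and 1.50 FPKM across controls 1 to 4 and at 0, 1.75, 0.249 and 0 across TNFdARE mice 1 to 4. Each group had a pair of libraries at 0, and the ranges overlapped (two-sided exact permutation test on log2(FPKM + 1), p = 1).

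Tuba4a had the highest mean of the alpha-tubulins in both groups, although Tuba1a exceeded it in control mouse 2 and Tuba1b and Tuba1c in TNFdARE mouse 1. Its FPKM was 22.2, 3.56, 15.0 and 12.0 across controls 1 to 4 and 0, 9.24, 10.2 and 7.53 across TNFdARE mice 1 to 4. TNFdARE mouse 1, listed at 0, lay below every control, and the other TNFdARE mice lay inside the control range. The log2 difference was -1.13 (standard error 0.84, adjusted p = 0.86, limma; two-sided exact permutation test, p = 0.34), and over the alternatives it ran from -1.92 (pseudocount of 0.1) to -0.18 (limma's sample weights). It was -0.30 without TNFdARE mouse 1 and -1.60 without control mouse 2. Tuba4a thus differed by less than the spread between mice.

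Tuba4a overlaps the gene Stk16 on the opposite strand, and their transcripts share 1379 bases. Stk16 was at 1.39, 3.71, 2.54 and 3.74 FPKM across controls 1 to 4 and at 6.90, 1.77, 2.32 and 1.92 across TNFdARE mice 1 to 4. Stk16 was highest in TNFdARE mouse 1, the library with Tuba4a at 0. The sources used here do not say whether reads were assigned by strand, and without it reads from the overlap cannot be told apart.

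Tuba8, an alpha-tubulin also found in platelets, testis and muscle, was low. It was at 0, 0.941, 2.01 and 0.920 FPKM across controls 1 to 4 and at 0, 0.616, 0.125 and 0 across TNFdARE mice 1 to 4. No TNFdARE mouse reached the lowest control value above 0, yet control mouse 1 at 0 made the groups overlap (two-sided exact permutation test, p = 0.14). Tuba8 shares 370 bases with Gm15856 on the opposite strand, which was listed at 0 to 14.3 FPKM.

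Tuba1b and Tuba1c, the common alpha-tubulins of proliferating cells, were near 0. Tuba1b was at 0, 0.0965, 0.0470 and 0 FPKM across controls 1 to 4 and at 0.284, 0.577, 0.497 and 0 across TNFdARE mice 1 to 4. TNFdARE mice 1, 2 and 3 were above all controls, and mouse 4 was at 0 (two-sided exact permutation test, p = 0.14). Tuba1c was above 0 in control mouse 4 at 0.0554 FPKM and in TNFdARE mice 1 and 3 at 0.459 and 0.903 (two-sided exact permutation test, p = 0.43). At such levels, and with 11 and 12 other genes whose transcripts match them at 95% identity over 150 bases or more, neither can be separated from its copies.

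Tuba1a, outside the members but 98.3% identical to Tuba1b in its coding sequence, was the other alpha-tubulin with a mean above 1 FPKM. It was at 0, 4.52, 7.68 and 3.14 FPKM across controls 1 to 4 and at 0, 3.47, 3.52 and 4.72 across TNFdARE mice 1 to 4. Each group had 1 library at 0, and the log2 difference of Tuba1a was -0.20 (standard error 0.85, adjusted p = 0.97, limma).

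Tuba4a took 100%, 39.1%, 60.7% and 74.5% of the summed alpha-tubulin FPKM across controls 1 to 4 and 0%, 66.5%, 66.9% and 61.5% across TNFdARE mice 1 to 4. All TNFdARE mice but mouse 1 lay inside the control range, and the difference between means was -19.9 percentage points (two-sided exact permutation test, p = 0.40). It was -3.62 percentage points without TNFdARE mouse 1 and -1.88 without TNFdARE mice 1 and 4. In TNFdARE mouse 1 the whole alpha-tubulin sum was 0.743 FPKM, against 9.11 to 24.8 in the other libraries.

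Each TNFdARE mouse had a lower listed FPKM of Mapre2 than any of the controls, the pattern for which the gene was picked. Its FPKM (ENSMUSG00000024277) was 12.3, 5.10, 5.26 and 5.57 across controls 1 to 4 and 0, 3.71, 1.10 and 0 across TNFdARE mice 1 to 4. Means were 7.05 ± 3.49 (SD, n = 4) and 1.20 ± 1.75 (SD, n = 4), and the log2 difference was -2.10 (standard error 0.72). Of all genes tested, 2.48% were lower in TNFdARE mice with no overlap between groups and 0.847% were higher in that way. An unadjusted p under 0.05 by limma was found for 4.50% of all genes tested, 2.74% lower and 1.76% higher. No gene had an adjusted p under 0.05 (0 of 1534, smallest adjusted p = 0.86, limma).

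The 0 of Mapre2 in TNFdARE mice 1 and 4 is shared by many genes. Of the 1534 genes tested, 487 (31.7%) were at 0 in both of these libraries, and 111 (7.24%) were at 0 there and above 0 in all 6 other mice, as Mapre2 was. The part of the low detection in these libraries was not tested. Without them the log2 difference of Mapre2 was -1.27, resting on 3.71 and 1.10 FPKM against a lowest control value of 5.10. It was -3.85 with a pseudocount of 0.1 and -0.96 with a pseudocount of 5. Centring each library on its platelet markers gave -1.97, and rescaling without the most abundant gene and the globins gave -2.02.

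Mapre1 (ENSMUSG00000027479, chr2:153741274-153773310, plus strand) encodes EB1, the EB protein that tracks growing microtubule ends in most cells. It was at 0.922, 0.932, 0.253 and 0.149 FPKM across controls 1 to 4 and at 0, 0.751, 0.256 and 0.792 across TNFdARE mice 1 to 4. The groups overlapped over most of their range (two-sided exact permutation test, p = 0.63). In control platelets Mapre2 exceeded Mapre1 in all 4 mice, as it did in TNFdARE mice 2 and 3. Both were at 0 in TNFdARE mouse 1, and in TNFdARE mouse 4 Mapre1 was above 0 and Mapre2 was not. The coding sequences of the EB genes are 68.1% identical, and Mapre2 matched no other gene at 95% over 150 bases. Mapre3, the gene of EB3, was at 0 in all 8 libraries.

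Ordered by mean FPKM in control platelets, the members ran Tubb1 (127), Tuba4a (13.2), Tubb2a (7.93), Mapre2 (7.05), Tubb4b (1.94), Tuba8 (0.968), Mapre1 (0.564), Tubb5 (0.532), Tuba1b (0.0359) and Tuba1c (0.0138). Tubb1 was above Tuba4a and Mapre2 above Tubb4b in every pairing of control mice, and all other neighbours in this order overlapped. In TNFdARE platelets the order began with Tubb1 (78.7), Tubb2a (15.2), Tuba4a (6.74) and Mapre2 (1.20), and every neighbour overlapped the next.

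Differences between the sexes in the genotype effect were not detectable for the members in the fit. The interaction of genotype and sex had adjusted p-values between 0.92 and 1.00 by limma for Tubb1, Tubb2a, Tuba4a and Tubb4b, with 2 mice per sex and genotype.

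**Figure D4:**
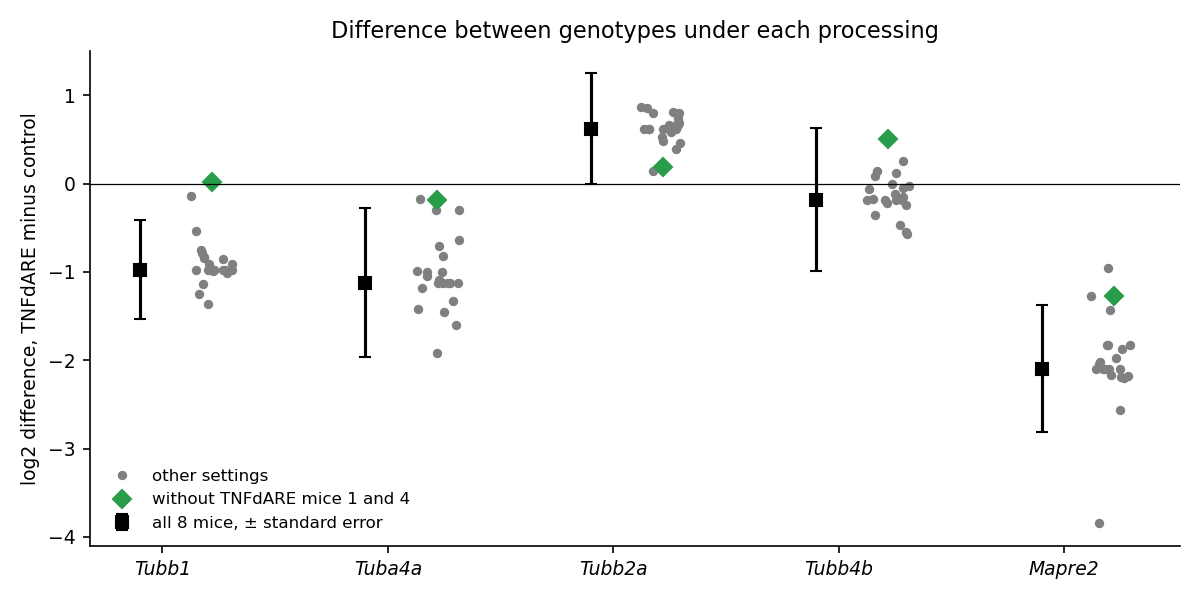
Log2 difference (TNFdARE minus control) of the 5 members whose mean FPKM reached 1: black squares show all 8 mice ± standard error, grey points every other processing or left-out mouse, and green diamonds the value without TNFdARE mice 1 and 4. Without these mice Tubb1 is at 0.014 and Tuba4a at -0.19. Mapre2 is shown as a description, since it was selected for being lower.

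The wider set of microtubule genes held 144 genes, of which 139 had an entry, 77 were above 0 in some library and 25 reached a mean FPKM of 1. The log2 difference of these 25 was above 0 for 11 and below 0 for 14, Mapre2 included, and its median was -0.18, beside 62.97% lower and a median of -0.30 over all genes tested. Dctn1, Pafah1b1, Fli1 and Ttll1 reached the mean of 1 only through the TNFdARE mice, and Klc1, Tubgcp4, Slain2 and Cdc42 only through the controls, so their directions, and with them this split and its median, were partly set by the filter. Over the alternatives the median of the list ran from -0.32 to 0.15, the highest after quantile normalization, so its sign is not settled. Apart from Mapre2, which was chosen for its difference, 0 of the other 24 had an unadjusted p under 0.05 by limma, beside 4.50% of all genes tested (69, of which 27 higher and 42 lower; 34 higher and 25 lower after quantile normalization).

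Among proteins that act on microtubule ends and on tubulin itself, few reached the mean FPKM needed to be tested. Of 13 EB and plus-end genes 3 were tested. They were Mapre2, Stim1, a calcium sensor that EB1 carries on plus ends, and Slain2 (log2 difference -0.44, standard error 0.70), which recruits the polymerase ch-TOG. Stim1 had a log2 difference of -0.10 (standard error 0.72) but a slightly higher mean FPKM in TNFdARE (2.38) than in control platelets (2.22), with TNFdARE mouse 4 at 0. Of 22 tubulin-folding genes, 1 was tested, the prefoldin subunit Pfdn5 (-0.78, standard error 1.11), which was at 25.5 FPKM in TNFdARE mouse 4 and at 0 in TNFdARE mouse 1 and control mouse 2. Of the tubulin-modifying enzymes 3 were tested, namely Agbl5 (0.019), which removes glutamates from tubulin tails, and the ligase-family members Ttll11 (-0.58) and Ttll1 (0.50), which was at 4.92 FPKM in TNFdARE mouse 4 and at most 1.42 in any other mouse. Of 12 nucleation genes, 1 was tested, Tubgcp4 (-0.55), and Tubg1 and Tubg2, which encode gamma-tubulin, were at 0 in all libraries. Slain2, Ttll11 and Tubgcp4 were at 0 in both TNFdARE mice 1 and 4, and Slain2 (1.94 and 2.00 FPKM) and Ttll11 (3.48 and 2.60 FPKM) in TNFdARE mice 2 and 3 exceeded their control means, so their negative differences rest on the libraries that stood apart.

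Kif2a, a kinesin that takes microtubules apart at their ends, was the most abundant of the associated and severing proteins, with a mean of 9.14 FPKM and a log2 difference of 0.047 (standard error 0.63). Map7d1 came next at 5.92 FPKM (-0.43), a mean that rests on 39.6 FPKM in control mouse 1, since no other mouse was above 3.01. Of 28 dynein, dynactin and kinesin-1 genes, 3 were tested: Pafah1b1, the dynein regulator LIS1 (0.88), the kinesin light chain Klc1 (-0.81) and the dynactin subunit Dctn1 (1.11). Pafah1b1 was at 14.1 FPKM in TNFdARE mouse 4 and at most 0.375 in any other, so its difference rests on that library. Klc1 was at 0 in TNFdARE mice 1 and 4 and in control mouse 1, while TNFdARE mice 2 and 3 had 1.05 and 1.49 FPKM. Dctn1 was at 0 in all controls but mouse 4 (0.346 FPKM), and its FPKM was 0, 0.831, 6.90 and 1.01 across TNFdARE mice 1 to 4.

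Nfe2, the transcription factor that drives Tubb1 in megakaryocytes, was well detected. It was at 26.4, 8.06, 17.0 and 17.4 FPKM across controls 1 to 4 and at 55.4, 9.47, 9.76 and 25.3 across TNFdARE mice 1 to 4. TNFdARE mouse 1, with the lowest Tubb1, had the highest Nfe2, and the groups overlapped (log2 difference 0.26, standard error 0.65, adjusted p = 0.94, limma). Fli1, another transcription factor of megakaryocytes, was at 8.20 FPKM in TNFdARE mouse 1 and at most 1.04 in any other. Gata1 (0.44, standard error 1.02), which drives megakaryocyte and erythroid genes, and Sptbn1 (-0.40, standard error 0.66), a spectrin of the membrane skeleton, had adjusted p-values of at least 0.86 by limma. Gata1 was at 33.0 FPKM in TNFdARE mouse 4, the library with the most globin, and at most 7.87 in any other, and Sptbn1 was lowest in that mouse (0.170 FPKM), so both values rest in large part on it.

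**Figure D5:**
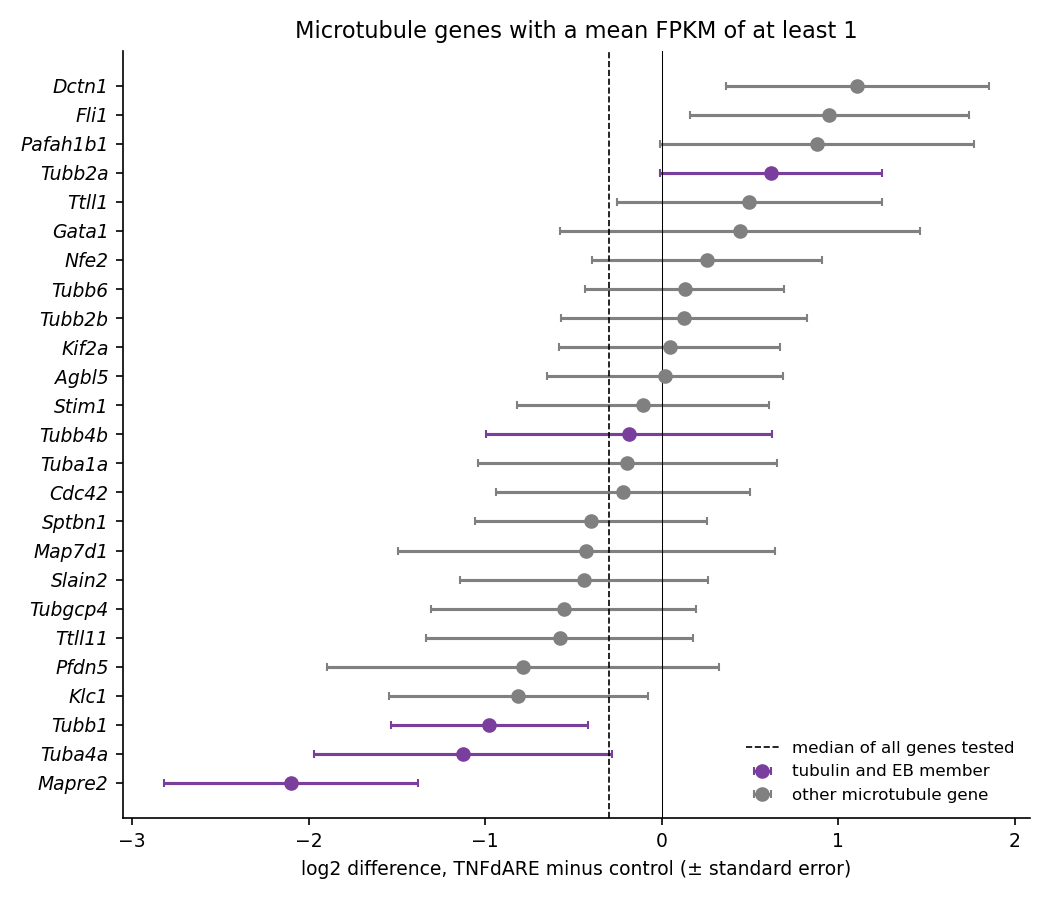
Log2 difference (TNFdARE minus control, ± standard error) of the 25 microtubule genes whose mean FPKM reached 1, with the members in purple and the median of all genes tested as a dashed line. Mapre2, chosen for this difference, is the lowest, and Tuba4a and Tubb1 follow it.

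The profile of Tubb1 over the 8 mice was compared with those of the 582 other genes whose mean FPKM reached 5, by the root mean square distance of log2(FPKM + 1) after centring each gene on its own mean. The closest were Focad (distance 0.27), Itgb1 (0.34), Gm26582 (0.37), Hpse (0.41) and A830073O21Rik (0.41), against a median distance of 1.19. Focad, like Tubb1, was at 38.7 and 53.9 FPKM in TNFdARE mice 1 and 4 and at 103 to 183 FPKM elsewhere. Itgb1, the integrin beta chain of platelet collagen and fibronectin receptors, was at 9.19 and 7.31 FPKM in TNFdARE mice 1 and 4 and at 21.5 to 36.8 in the other libraries. These genes were chosen for their likeness to Tubb1, and their values are a description.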

How the data were processed

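RNA of washed platelets from 8 mice was sequenced by the authors as 150 bp reads. The authors deposited 1 FPKM value per gene and mouse. The unit was inferred from the values and from Cufflinks, named with mm10 in the submitters' processing notes; versions, annotation and the handling of strand and of reads with several matches are not given in the sources used here. Reads per library are unknown, so no counting interval is given, and 0 value columns were left unmapped. Because the values are not counts, limma 3.58.1 in R 4.3.3 (trend, Benjamini-Hochberg adjustment) was run on log2(FPKM + 1) of the 1534 genes whose mean FPKM reached 1, and the fit was tested on simulated data. A pseudocount understates changes of low genes. Single members were also compared by a two-sided exact permutation test, whose smallest p is 0.029. Each mouse is a separate sample by its label. Members and gene lists were chosen with earlier results of these data known. Genes named are the members, genes of the microtubule lists past an unadjusted p of 0.05 or among the 3 highest of their list, and the 5 profiles nearest to Tubb1. Fli1, Cdc42, Cct3, Cct7, Tubb2b, Tubb4b-ps1, Tubb4b-ps2, Mapre3, Tubg1, Tubg2, Stk16 and Gm15856 were named after their values were seen. Transcripts were compared with BLAST 2.17.0 on GENCODE M21, which holds 42384 of the 43548 identifiers. Alternatives covered pseudocount, filter, scaling, missing values, weights, sex, replicate number and left-out mice. Among these, leaving out TNFdARE mice 1 and 4 together was not planned in advance. Nor were centring on platelet markers and rescaling without the most abundant gene and the globins. Figures used matplotlib 3.10.9.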

Additional observations from a re-analysis of the deposited data

Results flagged for a closer look

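A mouse lay far from the others of its group in 5 of the 24 groups of 4 examined. Chance gives about 1.2, but the 5 include Mapre2, which was selected on its values, so the count tests nothing. In Mapre2, given as a description only, it was control mouse 1, at 12.3 FPKM (its distance to the next mouse was 0.934 of the spread from lowest to highest). In Tubb2a it was TNFdARE mouse 1, at 34.8 FPKM (0.847), and the same mouse, at 0, lay apart in the share of Tuba4a in alpha-tubulin (0.919). TNFdARE mouse 2 lay apart in Tubb5, at 1.75 FPKM (0.858). Control mouse 4 was the only control with Tuba1c above 0, at 0.0554 FPKM (1 of the range). In Tubb5 and Tuba1c the gap depends on libraries listed at 0.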

How the results depend on the processing

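By limma, 0 genes had an adjusted p under 0.05 in each of the 23 other fits (smallest adjusted p from 0.17 to 0.93), and the number with an unadjusted p under 0.05 was 69 as reported. It was 36 (16 higher, 20 lower) at a mean FPKM of at least 5, where 583 genes were tested, and 111 (74 higher) with sample weights. Lower genes were 25 after quantile normalization, and there were 45 higher and 11 lower without TNFdARE mice 1 and 4 together. Leaving out 1 mouse gave 44 to 74 genes, 12 to 35 higher (fewest without control mouse 1), 19 to 52 lower (fewest without TNFdARE mouse 4, 23 without TNFdARE mouse 1 and 27 without control mouse 4). The same count within the microtubule lists tests nothing, since it counts Mapre2, which was selected on these values. It was 1 (Mapre2) as reported, 0 at a mean of at least 5 (Mapre2 not in the fit) and with listed 0 treated as missing (Mapre2 without TNFdARE mice 1 and 4), 2 with sample weights (Dctn1 added), 1 to 2 with 1 mouse left out (Dctn1 or Tubb1 added), and 1 without TNFdARE mice 1 and 4, where it was Dctn1 and no longer Mapre2. Dctn1 reached the fit only through its TNFdARE values.

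Tubb1 ranged from -1.36 to -0.54 with 1 mouse left out, was -0.15 with sample weights, and reversed to 0.014 without TNFdARE mice 1 and 4, as did its share of beta-tubulin (0.473 percentage points, from -26.5 to -7.70 with 1 mouse left out). TNFdARE mice 1 and 4 had the lowest Tubb1 and the lowest share, so a rise without them follows from their choice. Tuba4a was below 0 in 23 of 23 alternatives (-1.92 to -0.18), and its share ranged from -29.7 to -3.62 percentage points with 1 mouse left out. Tubb2a was above 0 in 23 of 23 (0.14 to 0.87). Tubb4b reversed to 0.081 with a pseudocount of 0.1, to 0.50 without TNFdARE mice 1 and 4 and, with 1 mouse left out, ranged from -0.57 to 0.25 (0.12 without control mouse 4, 0.14 without TNFdARE mouse 1). Mapre2 ranged from -3.85 to -0.96, a description only, since its selection fixed its sign. The causes were not tested. With the replicate number as a block, 64 genes had an unadjusted p under 0.05 by limma and Tubb1 stayed at -0.98 (unadjusted p = 0.13). The deviations of same-numbered mice correlated between -0.067 and 0.060. This cannot decide whether those mice were paired, because paired mice need not deviate together. Library names share a tag between control mouse 1 and TNFdARE mouse 1, and between control mouse 4 and TNFdARE mouse 3. Pairing of control mouse 4 with TNFdARE mouse 3 was not tested. Reads per library are unknown, which limits what a listed 0 can show.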
